A study of Mus musculus with 15 samples.

Results

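Hearts of mice given activated protein C (aPC) were compared with hearts labelled untreated, with 2 libraries in each group (aPC-791 and aPC-792, untreated replicates 17 and 19). These are 4 of the 11 RNA sequencing libraries analysed. The libraries were chosen by their labels alone. Every gene with a level of at least 0 log2 CPM (library-scaled reads on a log base 2 scale) in at least 3 of the 11 libraries was tested, which gave 13541 of the 16658 genes listed. No group of 2 libraries could bring a gene through that filter alone, but a gene high in both aPC libraries needed only a further library to be tested.

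The study set aPC beside inhibitors of clotting factors in injury of the heart by ischemia and reperfusion. All mice were wild-type males of strain C57BL/6, aged between 8 and 10 weeks. The aPC group received 1 mg/kg 30 min before surgery, and the untreated group carries no drug in its labels. Of the other groups, rivaroxaban (an inhibitor of factor Xa, 3 mg/kg over 7 days) and dabigatran (an inhibitor of thrombin, 10 mg/kg over 7 days) have 2 libraries each and sham has 3. For the study as a whole, the labels describe 90 min of ligation of the left anterior descending artery and 24 h of reperfusion, with drugs given once more 2 h after surgery. No label of the untreated libraries names the surgery, so that these hearts underwent ischemia rests on this description of the whole study, and every difference from untreated hearts is to be read with that limit. The tissue held the infarct and the muscle around it. Each library carries its own number, and no label says that libraries were prepared together, so a p-value measures only the spread between these libraries.

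Activated protein C is a serine protease of plasma that is formed when thrombin, bound to thrombomodulin on the vessel wall, cleaves protein C. It limits clotting by inactivating the factors Va and VIIIa. On endothelial cells it also cleaves protease-activated receptors with the help of the endothelial protein C receptor, and it is known there for signals through sphingosine kinase and a sphingosine phosphate receptor that tighten the vessel wall and dampen inflammatory gene expression. Reperfused heart muscle is known for a wave of immediate-early and stress genes in its own cells, followed by neutrophils and monocytes from the blood.

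The depth, recovered as whole reads over the genes listed, was 28254641 and 26629925 for aPC, 31827652 and 31170553 for untreated, and between 26203566 and 36135006 for the other groups. The aPC libraries resembled each other (SD of the log2 difference over genes 0.397), while the untreated libraries stood further apart than any other pair of the same group (0.792, against 0.313 to 0.483 in rivaroxaban, dabigatran and sham). Gm42418, a gene that overlaps ribosomal RNA sequence, took 6.78% and 6.73% of the reads of the aPC libraries and between 0.997% and 2.09% in the other 9 libraries. The aPC libraries also had higher levels of short genes and lower levels of long ones, with values given beside the results that it touches. The share of Gm42418 and the level of short genes move with the aPC group, while long genes were as low in Dabi-202 and sham replicate 006. The part of these features in the results was not tested.

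In the comparison of aPC with untreated hearts, 1007 genes were higher (7.44% of those tested) and 1377 were lower (10.2%) at a Benjamini-Hochberg adjusted p under 0.05 in limma. The falls included regulators that are switched on quickly by stress, hormones and inflammatory signals: immediate-early genes, glucocorticoid targets, NF-kB targets and the interleukin 6 pathway. The rises included chaperones of the endoplasmic reticulum and genes of resident macrophages. The 15 tested markers of heart muscle cells and their contractile fibres did not pass the test in either direction. The median log2 difference of all genes was 0.07. When reads of Gm42418 were taken out of the library totals the calls were 1581 higher and 1164 lower, so that 57.6% of the calls were rises, against 42.2% with the deposited scale.

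These counts lean on few libraries. A fit of only the aPC and untreated libraries called 1 gene higher and 2 lower (2797 had an unadjusted p under 0.05), and weighting the libraries by their spread left 59 and 175. The counts were 286 higher and 609 lower without aPC-791, 78 and 161 without aPC-792, and 2790 and 2445 without untreated replicate 17. They were 596 and 965 without Riva-313, 599 and 967 without Riva-319, and 612 and 986 without sham replicate 003, since the spread is estimated from all 5 groups at once. That shared estimate is below the spread of the untreated pair, so the errors given here understate the spread of that pair. In the text a change is the log2 difference, aPC minus untreated, and ± gives limma's standard error.

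**Figure D1:**
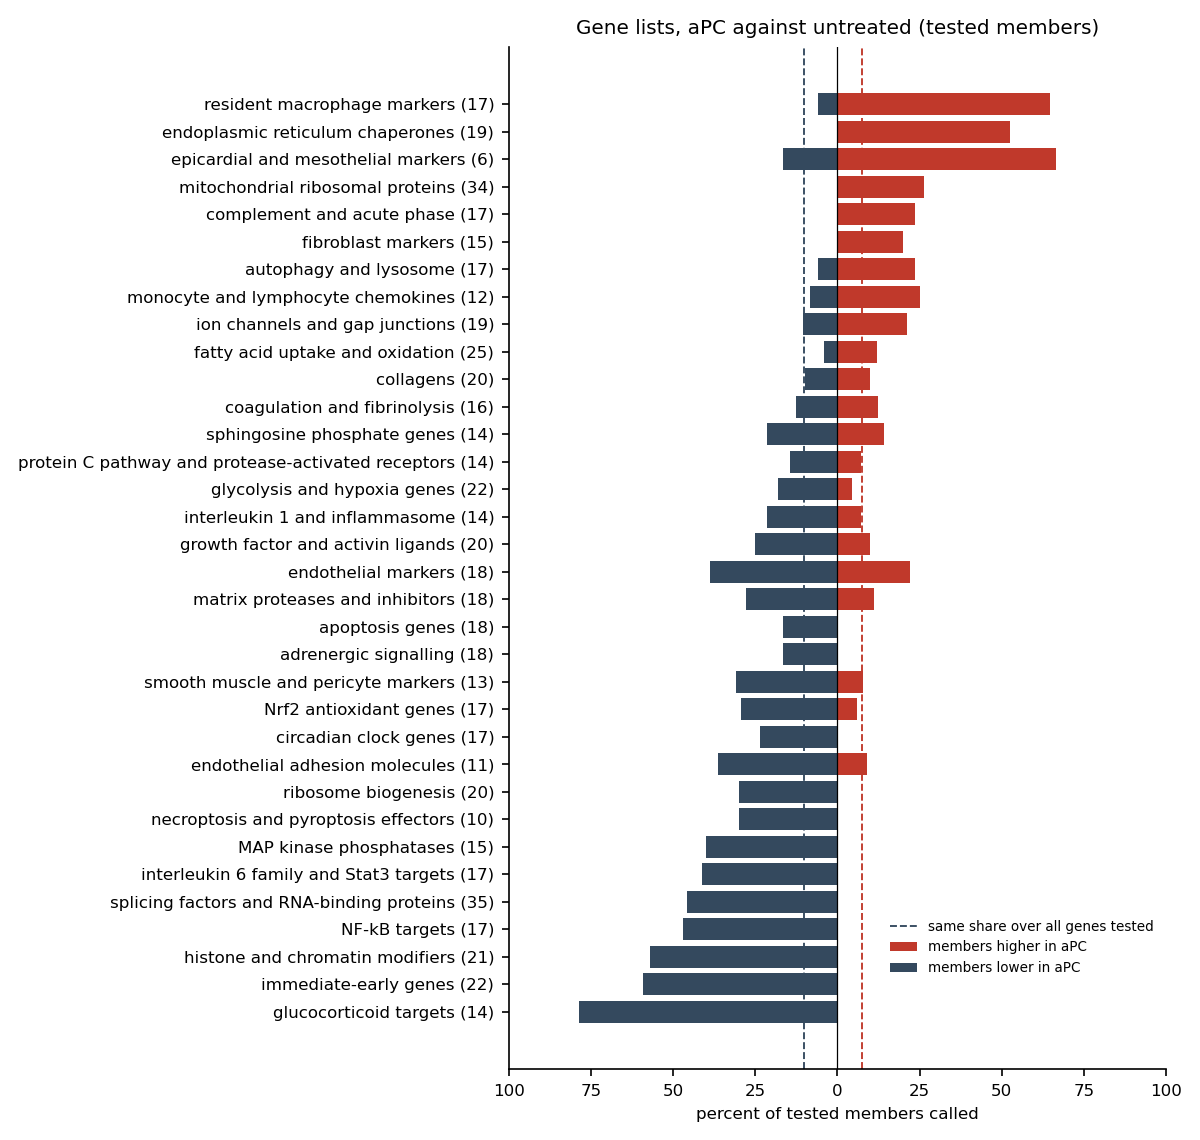
Percent of the tested members of each gene list that were higher (right) or lower (left) in aPC than in untreated hearts, for lists with at least 3 members called; dashed lines give the same share over all genes tested, 7.44% higher and 10.2% lower. Resident macrophage markers, endoplasmic reticulum chaperones and epicardial and mesothelial markers lie at the top, and glucocorticoid targets and immediate-early genes at the bottom.

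The 10 largest falls were led by genes of signalling. That the groups do not overlap in these genes, or in the 10 largest rises, was a condition of their choice. Most other named genes were picked for a low p in their list or after values were seen, so separation stated for them is no further support. The share of all genes without overlap is not given here. Arc, an immediate-early gene best known from neurons, had 0.22 and 0.96 log2 CPM in the aPC hearts and 3.56 and 6.22 in the untreated hearts (-4.29 ± 0.81, adjusted p = 0.00905). Inhbb (chr1:119415465-119422248, mm10), which encodes the beta B subunit of activin and inhibin, had 3.04 and 2.29 log2 CPM in aPC and 7.68 and 6.14 in untreated hearts (-4.24 ± 0.41, adjusted p = 0.000613). Grk5 (chr19:60889749-61095968), a kinase that desensitizes beta adrenergic receptors, had 6.16 and 5.51 log2 CPM in aPC and 9.42 and 8.57 in untreated hearts (-3.16 ± 0.28, adjusted p = 0.000411). In each of these genes both aPC libraries lay below both untreated libraries. Adamts4, a protease that cuts proteoglycans of the matrix, had 2.30 and 1.76 log2 CPM in aPC and 5.57 and 5.06 in untreated hearts (-3.29 ± 0.36). Map3k6, a kinase of the stress-activated MAP kinase pathway, had 4.75 and 3.81 in aPC and 7.22 and 7.76 in untreated hearts (-3.21 ± 0.41). Again the groups did not overlap. The other members of the 10 were Sphk1 (-3.67), Il18rap (-3.54), Vsig2 (-3.23), AA467197 (-3.12) and Slc10a6 (-3.00).

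The 10 largest rises held macrophage genes and genes of the secretory pathway. Aif1 (chr17:35170991-35176068), a calcium-binding protein of macrophages, had 2.46 and 2.44 log2 CPM in the aPC hearts and -0.31 and -1.26 in the untreated hearts (3.24 ± 0.42, adjusted p = 0.00216). Timd4, a receptor for phosphatidylserine on resident macrophages, had 2.69 and 2.70 in aPC and -0.49 and -0.31 in untreated hearts (3.10 ± 0.48, adjusted p = 0.00437). Fcrls, a scavenger receptor gene of resident macrophages and microglia in mice, had 3.17 and 3.63 in aPC and -0.26 and 0.87 in untreated hearts (3.09 ± 0.43, adjusted p = 0.00309). These low-level genes had 131 to 300 reads in aPC and 10 to 50 in untreated libraries, and the groups did not overlap. Aplnr, the receptor of apelin, expressed on endothelium, had 4.02 and 5.57 log2 CPM in aPC and 1.95 and 1.90 in untreated hearts (2.87 ± 0.49, adjusted p = 0.00627). Clec12a, an inhibitory receptor of myeloid cells, changed by 3.15 ± 0.43, Pkhd1l1 by 3.17 ± 0.55 and Spon2 by 3.16 ± 0.70. The other 3 of the 10 (Derl3, Sdf2l1 and Pdia4) belong to the endoplasmic reticulum and are described next.

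**Figure D2:**
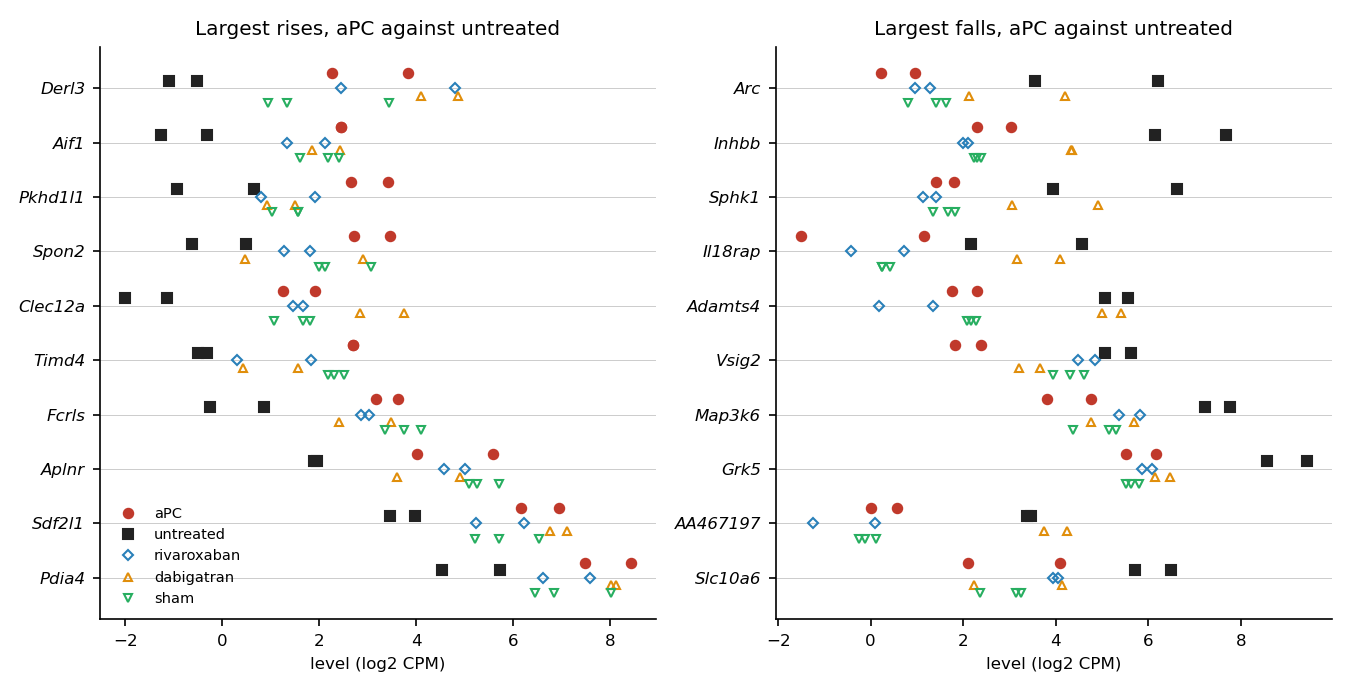
Level in every library (log2 CPM, horizontal axis) of the 10 genes with the largest rises (left) and the 10 with the largest falls (right) in aPC against untreated hearts; filled symbols are aPC and untreated, open symbols the other groups. The 20 genes were chosen among those whose aPC and untreated points do not overlap, and Vsig2 is lower in aPC than in all other libraries.

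Of these 20 genes, all kept the direction of change under every alternative in which they were tested, and the calls held for 19 without aPC-791, for 11 without aPC-792, for 19 without untreated replicate 19, for 10 with library weights and for 0 in the fit of only these 4 libraries. Aif1, Clec12a, Fcrls, Inhbb, Adamts4, Vsig2, Map3k6 and Grk5 lost their call only in that last fit.

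Chaperones and folding enzymes of the endoplasmic reticulum, which fold secreted and membrane proteins and are induced together when unfolded proteins build up, were higher in the aPC hearts in 10 of 19 tested members and lower in 0, with a median change of 1.10 over the 19. The median length of these genes was 3248 bases, against 4415 for all tested genes. Derl3 (chr10:75893413-75895941), a component of the machinery that exports misfolded proteins for degradation, had 2.26 and 3.83 log2 CPM in aPC and -1.10 and -0.51 in untreated hearts (3.86 ± 0.90, adjusted p = 0.0192). Sdf2l1, a partner of the main chaperone of the compartment, had 6.16 and 6.93 in aPC and 3.98 and 3.46 in untreated hearts (2.83 ± 0.44, adjusted p = 0.00437). Pdia4, a protein disulfide isomerase, had 7.49 and 8.42 in aPC and 5.73 and 4.54 in untreated hearts (2.82 ± 0.54, adjusted p = 0.00952). For all 3 genes the aPC libraries lay above the untreated ones, with aPC-792 the higher of the pair. Manf, a secreted survival factor that is retained with the chaperones, changed by 2.20 ± 0.43, Creld2 by 1.98 ± 0.47, Hyou1 by 1.86 ± 0.51, Pdia6 by 1.22 ± 0.29, Pdia3 by 1.10 ± 0.24, Calr by 0.95 ± 0.26 and Canx by 0.80 ± 0.20. Hspa5, the main chaperone itself, had 10.71 and 11.40 log2 CPM in aPC and 9.80 and 10.07 in untreated hearts (1.12 ± 0.35, adjusted p = 0.0523) and did not pass. The untreated hearts lay below the sham hearts in this list: the median deviation of its members from their own mean over all libraries was 0.17 and 0.64 in aPC, -0.62 and -0.79 in untreated, and -0.40, -0.20 and 0.35 in sham. Without aPC-792 the list had 0 members called, and without untreated replicate 19 it had 5.

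The integrated stress response gave 1 call. Of its 16 tested members, 1 rose and 0 fell, against 7.44% and 10.2% of all genes, and its median was -0.32. The rise was lost without aPC-792, and without untreated replicate 17 the list had 2 rises and 3 falls, while 1 fall was called without aPC-791 or Dabi-204. The gene called was Atf5, a transcription factor of the mitochondrial stress response, with 6.28 and 6.45 log2 CPM in aPC and 5.62 and 4.71 in untreated hearts (1.20 ± 0.25, adjusted p = 0.0136). Atf4 had 6.50 and 6.03 in aPC and 6.47 and 7.30 in untreated hearts (adjusted p = 0.275), and Ddit3, a mediator of death after prolonged stress, had 4.75 and 4.06 in aPC and 3.96 and 4.04 in untreated hearts (adjusted p = 0.525). Among 17 heat shock chaperones of the cytosol and mitochondria, 1 rose (Hspd1, 0.44 ± 0.13) and 0 fell.

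Promoters of the chaperone genes are shown because several hold the same element. RefSeq promoters on GRCm38.p6 (250 bases before to 50 after the start) were at hand for 17 of the 19 chaperone genes and for 10392 of all tested genes. The endoplasmic reticulum stress response element (CCAAT, then 9 bases of any kind, then CCACG, read on both strands), a search chosen after the values were seen, was in 8 of the 17 chaperone promoters (47.1%) and in 18 of all 10392 (0.173%). The 8 were those of Calr, Canx, Creld2, Derl3, Dnajc3, Hsp90b1, Hspa5 and Pdia6, of which Dnajc3, Hsp90b1 and Hspa5 were not called. Promoter sequence does not depend on treatment, so this share describes the list and is no support for a rise in aPC. Among all genes called higher the element was in 5 of 789 promoters (0.634%), and among those called lower in 3 of 1056 (0.284%). The 5 were all chaperones of the list (Calr, Canx, Creld2, Derl3 and Pdia6), so no other gene called higher held the element. The element includes the shorter NF-Y motif CCAAT, which alone was in 42.3% of all promoters. In the 250 bases before the start of Derl3 (chr10:75893148-75893397, plus strand), Creld2 (chr15:88819396-88819645, plus strand) and Pdia6 (chr12:17266339-17266588, plus strand), given 5′ to 3′ along the gene, capitals mark the element, which is reversed in the first pair. It begins 156, 126 and 98 bases before the start of these genes in that order.
Derl3: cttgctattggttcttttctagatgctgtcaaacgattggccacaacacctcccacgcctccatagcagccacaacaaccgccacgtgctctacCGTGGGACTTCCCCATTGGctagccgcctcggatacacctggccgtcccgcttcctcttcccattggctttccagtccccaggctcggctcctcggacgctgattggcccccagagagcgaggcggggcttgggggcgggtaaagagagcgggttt
Creld2: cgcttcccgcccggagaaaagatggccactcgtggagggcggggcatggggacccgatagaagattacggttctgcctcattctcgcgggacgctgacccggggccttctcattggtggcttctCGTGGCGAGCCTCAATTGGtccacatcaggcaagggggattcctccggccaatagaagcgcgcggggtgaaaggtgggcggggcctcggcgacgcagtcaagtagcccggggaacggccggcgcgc
Pdia6: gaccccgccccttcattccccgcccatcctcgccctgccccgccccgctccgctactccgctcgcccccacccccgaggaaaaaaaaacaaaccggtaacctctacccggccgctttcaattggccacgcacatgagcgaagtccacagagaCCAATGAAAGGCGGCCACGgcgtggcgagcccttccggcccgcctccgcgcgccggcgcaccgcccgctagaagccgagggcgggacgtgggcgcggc

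Immediate-early genes, which cells transcribe within minutes of a stimulus without new protein synthesis, were lower in the aPC hearts in 13 of 22 tested members and higher in 0, with a median of -1.50. Fos had 1.49 and 1.69 log2 CPM in aPC and 4.17 and 4.28 in untreated hearts (-2.64 ± 0.53, adjusted p = 0.0113). Fosl2, a member of the same AP-1 family, had 5.28 and 4.94 in aPC and 6.95 and 7.34 in untreated hearts (-2.03 ± 0.33, adjusted p = 0.00491). Nr4a1, an orphan nuclear receptor, had 3.41 and 3.77 in aPC and 5.36 and 5.83 in untreated hearts (-2.00 ± 0.36, adjusted p = 0.00756). The groups were apart in all 3 genes. Myc fell by 1.82 ± 0.36, Egr1 by 1.83 ± 0.38, Junb by 1.50 ± 0.30 and Ier2 by 1.09 ± 0.22. Atf3 had 2.36 and 1.89 log2 CPM in aPC and 3.23 and 4.65 in untreated hearts and did not pass (adjusted p = 0.0768). The count was 4 without aPC-791 and 1 without aPC-792.

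Feedback inhibitors of MAP kinases, which are transcribed when these kinases are active, fell in 6 of 15 members and rose in 0. Spry4, which restrains the pathway upstream of the kinases, had 3.43 and 3.76 log2 CPM in aPC and 6.20 and 5.37 in untreated hearts (-2.19 ± 0.25, adjusted p = 0.00138). Dusp1, a phosphatase of p38 and JNK, had 5.35 and 5.88 in aPC and 7.10 and 7.12 in untreated hearts (-1.50 ± 0.25, adjusted p = 0.00563). Dusp6, a phosphatase of ERK, changed by -0.68 ± 0.17 and Dusp4 by -1.04 ± 0.27. The count was 2 without aPC-791 or aPC-792 and 3 without untreated replicate 19.

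Genes known as targets of the glucocorticoid receptor fell in 11 of 14 members and rose in 0, with a median of -1.93. Zbtb16, a transcription factor strongly induced by steroids, had 6.03 and 5.83 log2 CPM in aPC and 8.59 and 8.90 in untreated hearts (-2.81 ± 0.43, adjusted p = 0.00427). Per1, a clock gene with steroid response elements, had 6.19 and 5.20 in aPC and 7.73 and 9.07 in untreated hearts (-2.71 ± 0.47, adjusted p = 0.00685). Sgk1, a kinase that regulates ion transport, had 6.33 and 5.68 in aPC and 7.41 and 8.54 in untreated hearts (-1.97 ± 0.38, adjusted p = 0.00968). Each had both aPC libraries below both untreated ones, and untreated replicate 19 was the highest library. Angptl4 fell by 2.83 ± 0.74, Cdkn1a by 2.71 ± 0.64, Mt2 by 2.44 ± 0.70, Ddit4 by 1.58 ± 0.34, Klf9 by 0.88 ± 0.20 and Tsc22d3 by 0.68 ± 0.20. Fkbp5, a chaperone of the receptor, had 7.61 and 5.68 log2 CPM in aPC and 8.57 and 8.50 in untreated hearts and did not pass (adjusted p = 0.0532), nor did the pyruvate dehydrogenase kinase Pdk4 (adjusted p = 0.0573). The list is not independent of the others, since Nfkbia is also an NF-kB target, Dusp1 a MAP kinase phosphatase, Mt2 a metallothionein of the Nrf2 list and Per1 a clock gene. The count was 3 without aPC-792 and 7 without untreated replicate 19.

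The circadian clock genes had 4 members lower and 0 higher of 17, against 10.2% and 7.44% of all genes. Per2, a repressor of the clock, had 4.12 and 3.93 log2 CPM in aPC and 6.00 and 6.83 in untreated hearts (-2.39 ± 0.43, adjusted p = 0.00721). The others were Per1, Rora and Cry2. The time of day at which hearts were taken is not given in the sources used here. The count was 2 without aPC-791, 0 without aPC-792, 7 without untreated replicate 17 and 2 without untreated replicate 19.

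**Figure D3:**
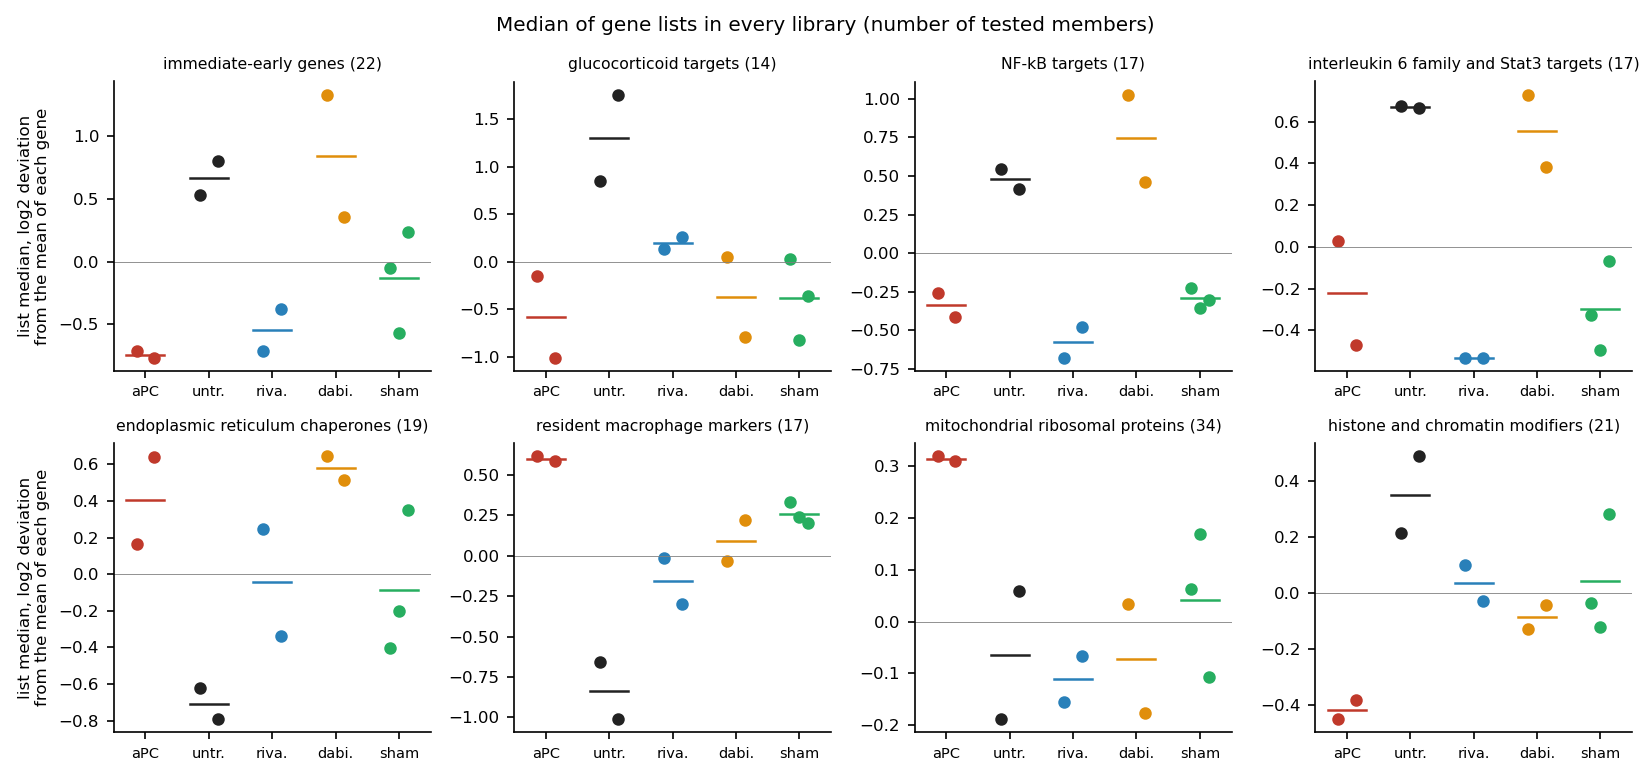
Median over the tested members of 8 gene lists in every library, as the log2 deviation from the mean of each gene over the 11 libraries (vertical axis; points are libraries, lines group means, numbers of members in the titles). The aPC points are apart from the untreated points in all 8 lists, and immediate-early genes, with -0.72 and -0.77 in aPC against 0.53 and 0.81 in untreated hearts, show the aPC pair below every other group mean. The 8 lists were picked from the 57 with at least 5 tested members, so their separation is no further support. Platelet and cardiomyocyte markers, not drawn, overlap between the groups.

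Targets of NF-kB, the transcription factor that drives most inflammatory genes, fell in 8 of 17 members and rose in 0, with a median of -1.02. Several of these are its own inhibitors. Nfkbia, which holds NF-kB in the cytoplasm, had 5.76 and 5.27 log2 CPM in aPC and 6.86 and 7.46 in untreated hearts (-1.64 ± 0.23, adjusted p = 0.00318). Nfkbiz, a nuclear cofactor, had 2.97 and 2.74 in aPC and 4.69 and 5.34 in untreated hearts (-2.17 ± 0.26, adjusted p = 0.00175). Tnfaip3, an enzyme that ends the signal, had 2.77 and 2.31 in aPC and 4.61 and 3.74 in untreated hearts (-1.63 ± 0.32, adjusted p = 0.0102). No aPC library reached the level of an untreated one in these genes. Birc3 fell by 1.30 ± 0.16, Zc3h12a, which degrades cytokine messages, by 1.34 ± 0.31, Bcl3 by 1.02 ± 0.27 and the subunit Relb by 0.95 ± 0.18. The eighth was Cxcl1. The count was 5 without aPC-791 and 3 without aPC-792.

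Chemokines that attract neutrophils were lower in the aPC hearts in 2 of 6 members. Cxcl1 (chr5:90891241-90893115) had 2.24 and 1.71 log2 CPM in aPC and 3.72 and 5.19 in untreated hearts (-2.48 ± 0.55, adjusted p = 0.0159). Its neighbour Cxcl2 had 1.96 and 0.42 in aPC and 3.94 and 3.95 in untreated hearts (-2.75 ± 0.49, adjusted p = 0.00739). The libraries of the groups did not overlap in either gene. Both calls were lost without aPC-792, and 1 of them without untreated replicate 19.

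The promoters of Cxcl1 and Nfkbia are shown as members that fell and carry the NF-kB motif, here GGGA, then 2 bases of any kind, then TTCC, on either strand. The motif was in 3 of the 13 NF-kB target promoters at hand (Cxcl1, Nfkb2 and Nfkbia) and in 181 of all 10392 (1.74%). Among all genes called lower, 20 of 1056 promoters held the motif (1.89%), near the share of all genes. In the 250 bases before the start of Cxcl1 (chr5:90890995-90891244, plus strand) and Nfkbia (chr12:55492648-55492897, minus strand), the capitals mark it. In Cxcl1 they cover 2 overlapping matches, on opposite strands and 1 base apart.
Cxcl1: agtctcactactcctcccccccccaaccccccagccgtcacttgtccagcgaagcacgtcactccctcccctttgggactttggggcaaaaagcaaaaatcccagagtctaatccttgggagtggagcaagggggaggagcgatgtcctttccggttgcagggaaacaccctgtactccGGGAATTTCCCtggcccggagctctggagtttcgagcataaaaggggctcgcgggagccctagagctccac
Nfkbia: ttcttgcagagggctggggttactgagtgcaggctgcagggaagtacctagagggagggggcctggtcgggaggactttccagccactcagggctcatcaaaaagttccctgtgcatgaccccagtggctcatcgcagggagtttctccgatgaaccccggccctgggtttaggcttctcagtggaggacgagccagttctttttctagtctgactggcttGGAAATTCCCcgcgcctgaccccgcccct

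The interleukin 6 family and the genes induced through Stat3 fell in 7 of 17 members and rose in 0, with a median of -1.12. Socs3, the feedback inhibitor of the pathway, had 4.77 and 3.90 log2 CPM in aPC and 6.02 and 6.60 in untreated hearts (-1.98 ± 0.37, adjusted p = 0.00902). Osmr, the receptor of oncostatin M, had 6.09 and 5.51 in aPC and 7.02 and 7.12 in untreated hearts (-1.27 ± 0.23, adjusted p = 0.00848). Clcf1, a cytokine of the family, had 2.64 and 1.92 in aPC and 3.91 and 5.83 in untreated hearts (-2.59 ± 0.52, adjusted p = 0.0114). The groups were separate in all 3. Il6 itself had 0.93 and 0.46 log2 CPM in aPC and 1.77 and 2.97 in untreated hearts and did not pass (-1.68 ± 0.76, adjusted p = 0.139), and the shared receptor chain Il6st had 8.33 and 8.26 in aPC and 8.21 and 7.87 in untreated hearts (adjusted p = 0.178). No member was called without aPC-792.

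The main cytokines of acute inflammation gave no call. Il1b had 3.19 and 2.41 log2 CPM in aPC and 2.62 and 2.95 in untreated hearts (0.01 ± 0.45, adjusted p = 0.985). Tnf had 0.17 and -0.39 in aPC and 0.15 and -1.03 in untreated hearts (0.33 ± 0.56, adjusted p = 0.69). The libraries of the groups overlapped in both genes. Within the interleukin 1 and inflammasome list, 3 of 14 members fell (the signalling receptor Il1r1 by 1.34 ± 0.27, the decoy receptor Il1r2 by 2.57 ± 0.70 and Casp4 by 0.79 ± 0.24) and 1 rose (the inflammasome adaptor Pycard, 0.82 ± 0.23). Over all genes tested 10.2% were lower and 7.44% higher, so the share of rises lay near that of all genes. Nlrp3 (-0.83 ± 0.38, adjusted p = 0.145) and Casp1 (0.39 ± 0.26, adjusted p = 0.298) did not pass. The falls numbered 0 without aPC-792 and 1 without untreated replicate 19 or sham replicate 003, and the rise was lost without either aPC library, either rivaroxaban library or sham replicate 003.

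Neutrophil markers fell in 2 of 14 members (Il1r2, and Hdc, the histamine-forming enzyme, by 1.59 ± 0.46) and rose in 0, and all 14 had a change below 0, with a median of -0.94. The share of falls lay near the 10.2% of all genes. The calprotectin subunits, which are abundant in neutrophils, overlapped between the groups: S100a8 had 4.59 and 3.14 log2 CPM in aPC and 4.30 and 4.88 in untreated hearts (adjusted p = 0.356). S100a9 had 5.24 and 3.76 in aPC and 4.81 and 5.47 in untreated hearts (adjusted p = 0.428). The summed level of the 16 markers listed was between 211 and 533 CPM in aPC, between 459 and 1022 CPM in untreated and between 169 and 201 CPM in sham hearts, so the groups overlapped there as well, and Cxcr1 was at 0 reads in both aPC libraries. The count of 2 fell to 0 without aPC-792 or sham replicate 003, was 1 without untreated replicate 19, either dabigatran library, sham replicate 006 or sham replicate 007, and 4 without untreated replicate 17.

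Adhesion molecules of the endothelium, which catch leukocytes from the blood, fell in 4 of 11 members and rose in 1, against 10.2% and 7.44% of all genes. E-selectin (Sele) had 1.70 and 1.14 log2 CPM in aPC and 3.31 and 2.89 in untreated hearts (-1.68 ± 0.32, adjusted p = 0.00908). P-selectin (Selp) had 1.99 and 0.87 in aPC and 3.29 and 3.27 in untreated hearts (-1.84 ± 0.45, adjusted p = 0.022). In both selectins the groups were apart. Esam, a junctional molecule, fell by 1.06 ± 0.14, while Cd34, a surface sialomucin, rose by 1.16 ± 0.23. Icam1 had 4.42 and 4.24 log2 CPM in aPC and 6.41 and 4.53 in untreated hearts and did not pass (adjusted p = 0.112). Only 1 of the 4 falls was called without aPC-792.

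Receptors that aPC acts on, and thrombomodulin, on which it is formed, did not pass the test in the main fit. Procr, the endothelial protein C receptor, had 1.70 and 0.46 log2 CPM in aPC and 1.71 and 1.53 in untreated hearts (-0.54 ± 0.39, adjusted p = 0.337). Protease-activated receptor 1 (F2r) had 5.16 and 5.25 in aPC and 5.59 and 6.05 in untreated hearts (-0.61 ± 0.19, adjusted p = 0.0529). Thrombomodulin (Thbd) had 6.56 and 6.58 in aPC and 7.43 and 7.38 in untreated hearts (-0.83 ± 0.33, adjusted p = 0.101). None of the 3 passed, although both aPC libraries were the lower in F2r and Thbd. F2r was called after the length trend was removed. Of the 14 members of the pathway list, 2 fell and 1 rose: Sphk1 and S1pr1, described next, and Tek, the angiopoietin receptor of endothelium, which had 6.77 and 6.59 log2 CPM in aPC and 5.98 and 5.60 in untreated hearts (0.89 ± 0.17, adjusted p = 0.0102). These shares lay near the 10.2% and 7.44% of all genes. No fall in this list was called without aPC-792, and 4 were without untreated replicate 17 or either dabigatran library; the rise was lost without either aPC library and a second was called without untreated replicate 17.

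Sphingosine phosphate genes, which link aPC to the endothelial barrier, fell in 3 of 14 members and rose in 2, against 10.2% and 7.44% of all genes. Sphk1, the inducible sphingosine kinase, had 1.80 and 1.40 log2 CPM in aPC and 3.93 and 6.62 in untreated hearts (-3.67 ± 0.76, adjusted p = 0.0123). S1pr1, the main endothelial receptor, had 6.87 and 6.25 in aPC and 7.54 and 7.61 in untreated hearts (-1.01 ± 0.22, adjusted p = 0.0159). In both the aPC libraries were lower than the untreated ones. The exporter Mfsd2b fell by 2.47 ± 0.51, and the receptors S1pr2 (0.89 ± 0.20) and S1pr4 (1.87 ± 0.37) rose. Of these, 0 falls and 0 rises were called without aPC-792, 1 rise was called without aPC-791, and 5 falls without untreated replicate 17.

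In the coagulation and fibrinolysis list, 2 of 16 members fell and 2 rose, shares near the 10.2% and 7.44% of all genes. Plaur, the receptor of urokinase, which fell, had 3.40 and 2.39 log2 CPM in aPC and 5.33 and 5.70 in untreated hearts (-2.62 ± 0.37, adjusted p = 0.00318). Urokinase itself (Plau) had 2.99 and 3.30 in aPC and 2.32 and 1.86 in untreated hearts (1.06 ± 0.29, adjusted p = 0.0345). In both genes the groups did not overlap. Vwf, which tethers platelets, changed by 0.57 ± 0.14 (adjusted p = 0.0223). Tissue factor (F3, 0.78 ± 0.25, adjusted p = 0.0525) and tissue plasminogen activator (Plat, -0.69 ± 0.22, adjusted p = 0.0511) lay just outside the threshold. The rises were lost without either aPC library and were 1 without either rivaroxaban library or sham replicate 003, and 1 of the falls was lost without aPC-792.

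Markers of resident macrophages, the long-lived phagocytes of the healthy heart, rose in 11 of 17 tested members, with a median of 1.28, and fell in 1. Their median length was 2334 bases, against 4415 for all tested genes. After the length trend was removed 11 rises were called. Cbr2 (chr11:120729489-120732114), a carbonyl reductase that marks these cells in mice, had 5.78 and 5.44 log2 CPM in aPC and 2.92 and 2.95 in untreated hearts (2.68 ± 0.19, adjusted p = 0.000118). Vsig4, a complement receptor, had 2.75 and 2.41 in aPC and -0.21 and -0.02 in untreated hearts (2.69 ± 0.31, adjusted p = 0.00133). C1qc, a chain of the first complement component, had 6.39 and 6.36 in aPC and 5.24 and 4.95 in untreated hearts (1.28 ± 0.15, adjusted p = 0.00163). Both aPC libraries lay above both untreated libraries in each gene, by more than the spread within either group. Adgre1 (F4/80, 1.82 ± 0.27), the folate receptor Folr2 (1.44 ± 0.22), C1qa (1.48 ± 0.18) and Csf1r, the receptor on which these cells depend (1.07 ± 0.18), rose too. Cd209f had 33 and 30 reads in aPC and 1 and 0 in untreated hearts. Fewer cells of a type and less RNA per cell cannot be told apart in such tissue.

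Not every marker of these cells moved in that direction. Mertk, a receptor for the uptake of dying cells, fell, with 3.93 and 3.88 log2 CPM in aPC and 4.33 and 5.06 in untreated hearts (-0.79 ± 0.23, adjusted p = 0.0395), a call that was lost without either aPC library, untreated replicate 19, either rivaroxaban library, sham replicate 003 or sham replicate 007. Lyve1 (0.39 ± 0.29, adjusted p = 0.356), Mrc1 (0.22 ± 0.27, adjusted p = 0.572) and Cd163 (-0.16 ± 0.38, adjusted p = 0.786) did not pass. The summed level of the 18 markers listed ran from 762 to 882 CPM in aPC, from 393 to 521 CPM in untreated and from 670 to 779 CPM in sham hearts. Between 9 and 13 rises were called when any 1 of the 11 libraries was left out, and 7 with library weights.

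Markers of other blood-derived cells gave few calls. Of all genes tested, 7.44% were higher and 10.2% lower. Among 14 markers of monocytes and recruited macrophages, 1 rose (Trem2, a lipid receptor of macrophages, 1.89 ± 0.53) and 0 fell, and Ccr2, the receptor that brings monocytes into tissue, had 3.60 and 3.00 log2 CPM in aPC and 2.19 and 2.27 in untreated hearts (1.07 ± 0.34, adjusted p = 0.0551). Their summed level ran from 202.9 to 265.4 CPM in aPC and from 184 to 246 CPM in untreated hearts. B cell markers rose in 2 of 9 members, with Bank1 at 2.53 ± 0.46 and the heavy chain Ighm at 1.98 ± 0.47, and summed to between 22.6 and 33.0 CPM in aPC, between 11.5 and 12.9 CPM in untreated and between 29.0 and 46.5 CPM in sham hearts. Of 13 genes of MHC class II presentation, 2 rose: H2-DMb1, which loads peptides onto class II molecules, had 2.12 and 2.54 log2 CPM in aPC and 0.34 and 0.46 in untreated hearts (1.93 ± 0.27, adjusted p = 0.00295), and H2-DMa changed by 1.495 ± 0.33. Only 2 of the T and NK cell markers were tested, and the 17 listed summed to 11.5 and 12.1 CPM in aPC and 7.20 and 10.4 CPM in untreated hearts. Among chemokines of monocytes and lymphocytes, Cxcl12 (0.99 ± 0.15), Ccl12 (1.72 ± 0.39) and Cxcl16 (1.08 ± 0.32) rose and Cxcl14 fell by 1.28 ± 0.26, of 12 members. Of the complement list 4 of 17 rose, and these were C1qa, C1qb, C1qc and C3ar1, genes that macrophages express. Without aPC-792 the rises numbered 0 for B cells, 1 for MHC class II, 1 for these chemokines and 2 for complement, without aPC-791 they were 1 for B cells and 1 for the chemokines, and without untreated replicate 19 MHC class II had 6. The call of Trem2 was lost without either aPC library, untreated replicate 19 or sham replicate 006.

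Among 5 mast cell and eosinophil markers, 1 fell and 1 rose. Kit, a receptor tyrosine kinase, had 1.64 and 2.11 log2 CPM in aPC and 4.58 and 4.37 in untreated hearts (-2.60 ± 0.35, adjusted p = 0.0026), and Cma1, a mast cell protease, had 0.06 and 0.50 in aPC and -0.92 and -1.26 in untreated hearts (1.37 ± 0.43, adjusted p = 0.0496), a call that was lost without either aPC library, untreated replicate 19 or any 1 of the rivaroxaban or sham libraries, and also with no filter, the stricter filter, log2 of CPM + 1, quantile normalization, library weights or the length trend removed.

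Markers of the epicardium and mesothelium, the cell layer that covers the heart, rose in 4 of 6 tested members and fell in 1, with a median of 3.87. Their median length was 2511 bases, against 4415 for all tested genes, and 4 rises were called after the length trend was removed. Krt8, a keratin of simple epithelia, had 4.36 and 2.35 log2 CPM in aPC and -2.66 and -0.08 in untreated hearts (4.72 ± 0.85, adjusted p = 0.00768). Krt19 had 4.07 and 2.27 in aPC and -3.93 and -0.51 in untreated hearts, from 410 and 116 reads in aPC and 0 and 18 reads in untreated hearts, so no fold is given (adjusted p = 0.00805). These levels rest on 500 and 123 reads of Krt8 in aPC and 3 and 25 in untreated hearts, and aPC-791 had the higher level. Krt18 changed by 3.57 ± 0.66 and Gpm6a, a membrane glycoprotein of mesothelium, by 2.11 ± 0.31. Msln (mesothelin) had 4.33 and 2.39 log2 CPM in aPC and -2.98 and 1.36 in untreated hearts and did not pass (adjusted p = 0.0861). Wt1, a transcription factor of the epicardium that endothelium also switches on after injury, went the other way, with 3.35 and 2.52 in aPC and 4.81 and 4.88 in untreated hearts (-1.91 ± 0.33, adjusted p = 0.00662). The summed level of the 9 markers listed ran from 37.4 to 106 CPM in aPC, from 29.7 to 36.2 CPM in untreated and from 11.6 to 17.5 CPM in sham hearts. Krt8 and Krt19 passed the filter only through the aPC libraries and Dabi-204, which had 74 and 65 reads of them. Their high level in aPC was thus part of the reason that they were tested. With the stricter filter 0 rises of this list were called. Only 1 of the 4 rises was called without aPC-791, and the part of how the tissue was cut was not tested.

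Markers of the vessel wall moved in both directions. Of 18 endothelial markers 7 fell and 4 rose, and their summed level ran from 2490 to 2777 CPM in aPC, from 2848 to 3087 CPM in untreated and from 2629 to 2861 CPM in sham hearts. Cldn5, a tight junction protein, had 5.28 and 4.41 log2 CPM in aPC and 7.15 and 6.42 in untreated hearts (-1.94 ± 0.33, adjusted p = 0.00586). Robo4, a receptor that stabilizes vessels, had 5.07 and 5.43 in aPC and 6.34 and 6.94 in untreated hearts (-1.39 ± 0.20, adjusted p = 0.0032). Emcn, a sialomucin of capillaries and veins, had 5.80 and 5.82 in aPC and 4.62 and 4.98 in untreated hearts (1.01 ± 0.16, adjusted p = 0.00437). The groups were separate in all 3 genes. Flt1 (-0.95 ± 0.14) fell and Pecam1 (-0.33 ± 0.13, adjusted p = 0.0875) did not pass. Without aPC-791 and aPC-792 in turn, 4 and 3 falls and 2 and 1 rises were called.

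Some genes of pericytes and of the basement membrane were lower. Among 13 smooth muscle and pericyte markers 4 fell and 1 rose, against 10.2% and 7.44% of all genes. Notch3, a receptor that maintains mural cells, had 5.023 and 4.998 log2 CPM in aPC and 5.81 and 5.97 in untreated hearts (-0.88 ± 0.19, adjusted p = 0.0143). Cspg4 (NG2) changed by -0.75 ± 0.16 and Pdgfrb by -0.70 ± 0.15, while Kcnj8, a channel subunit of pericytes, rose by 1.04 ± 0.27. Col4a1 had 8.79 and 8.93 log2 CPM in aPC and 10.08 and 10.39 in untreated hearts (-1.38 ± 0.15, adjusted p = 0.000922). Col4a2, its partner in the collagen of basement membranes, changed by -1.13 ± 0.14. Of 20 collagens, these 2 fell and 2 rose, with Col3a1 at 1.84 ± 0.55. The calls of smooth muscle and pericyte markers were lost in both directions without either aPC library, and the rises of collagens numbered 0 without aPC-792.

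Fibroblast markers rose in 3 of 15 members (Pi16, 1.54 ± 0.28; Islr, 1.52 ± 0.40; Col3a1) and fell in 0, with summed levels from 2879 to 3111 CPM in aPC, from 1750 to 2164 CPM in untreated and from 2747 to 3405 CPM in sham hearts. Genes of activated fibroblasts and matrix repair gave 2 falls of 14, a share near the 10.2% of all genes, and 0 without aPC-792 and 4 without untreated replicate 17. Thbs1, a matricellular protein released in injury, had 4.84 and 4.59 log2 CPM in aPC and 6.60 and 7.63 in untreated hearts (-2.40 ± 0.43, adjusted p = 0.0072), and Lox, which crosslinks collagen, changed by -1.91 ± 0.38. Postn (0.60 ± 0.46, adjusted p = 0.36) and Spp1 (1.32 ± 0.69, adjusted p = 0.189) did not pass. Matrix proteases of the ADAMTS family were among the falls: Adamts1 had 5.68 and 5.37 log2 CPM in aPC and 7.85 and 8.31 in untreated hearts (-2.55 ± 0.22, adjusted p = 0.00037). Adamts9 had 4.94 and 4.92 in aPC and 7.75 and 6.81 in untreated hearts (-2.35 ± 0.31, adjusted p = 0.00241). With Adamts4, Adam8 and Mmp14 they made 5 falls of 18 members, of which 3 were called without either aPC library, and Timp2 and Mmp15 rose. The rises of fibroblast markers numbered 1 without aPC-791, 0 without aPC-792 and 6 without untreated replicate 19.

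Growth factors and activin ligands fell in 5 of 20 members and rose in 2, against 10.2% and 7.44% of all genes. After Inhbb, the falls were Ereg (-2.58 ± 0.69), Bmp4 (-2.10 ± 0.47), the activin antagonist Fst (-1.93 ± 0.53) and Tgfb2 (-1.11 ± 0.29). Igf1, a survival factor that macrophages and fibroblasts release, had 3.91 and 3.91 log2 CPM in aPC and 2.56 and 2.79 in untreated hearts (1.24 ± 0.33, adjusted p = 0.0308). Of the genes of programmed death, those called were lower: Tnfrsf10b, a death receptor, by 2.12 ± 0.21 (adjusted p = 0.000613), Bcl2l1, which protects from apoptosis, by 1.58 ± 0.42 and Casp8 by 0.72 ± 0.20 among 18 apoptosis genes, and Ripk3, a kinase of necroptosis, by 1.07 ± 0.24 among 10 effectors of necroptosis and pyroptosis. Without aPC-792, 1 fall of the growth factors and 0 of the 3 falls of necroptosis and pyroptosis effectors were called. Apoptosis genes had 1 fall without aPC-792 or untreated replicate 19, and 5 falls and 3 rises without untreated replicate 17.

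The listed markers of heart muscle cells gave almost no call in the main fit. Of 15 markers of cardiomyocytes and the sarcomere, 0 were higher and 0 lower by limma, 0 had an unadjusted p under 0.05, and the median change was 0.00, and their summed level ran from 88252 to 92938 CPM in aPC and from 85523 to 112440 CPM in untreated hearts. Myh6, the main myosin of the adult mouse ventricle, had 14.97 and 14.79 log2 CPM in aPC and 15.14 and 15.54 in untreated hearts (-0.46 ± 0.27, adjusted p = 0.24). It was called with quantile normalization, where the median of the list was -0.16. Tnnt2, cardiac troponin T, had 13.50 and 13.44 in aPC and 13.37 and 13.59 in untreated hearts (-0.01 ± 0.19, adjusted p = 0.985). The natriuretic peptides, which rise in strained muscle, did not pass either: Nppa had 5.84 and 5.83 in aPC and 5.77 and 6.66 in untreated hearts (adjusted p = 0.477). Nppb had 7.69 and 7.91 in aPC and 5.06 and 9.31 in untreated hearts (adjusted p = 0.695), where the untreated libraries lie on either side of the aPC pair. Flnc, a filamin of the Z disc, was the member of the cardiac stress list that fell, with 8.67 and 8.96 in aPC and 9.79 and 11.34 in untreated hearts (-1.75 ± 0.40, adjusted p = 0.0172). That list had 0 falls without either aPC library or with library weights, and 2 without untreated replicate 17.

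Genes that set excitability rose and fell. Kcnd2, a channel of the early outward current, had 6.15 and 6.30 log2 CPM in aPC and 4.82 and 4.85 in untreated hearts (1.39 ± 0.32, adjusted p = 0.018). Kcnj11, the pore of the ATP-sensitive potassium channel, changed by 0.92 ± 0.22 and the gap junction protein Gja1 by 1.12 ± 0.34. Together 4 of 19 channel genes rose and 2 fell, against 7.44% and 10.2% of all genes, so the share of falls lay near that of all genes. The calls of the risers were all lost without either aPC library, while 8 rises were called without untreated replicate 17. Of 18 genes of adrenergic signalling 3 fell and 0 rose. The falls were all receptor kinases: Grk3 (-1.28 ± 0.15) and Grk6 (-0.68 ± 0.17) beside Grk5.

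Few metabolic genes passed the test. Over all genes tested, 7.44% were higher and 10.2% lower. Pfkfb3, which speeds glycolysis, had 3.70 and 3.82 log2 CPM in aPC and 5.52 and 6.66 in untreated hearts (-2.34 ± 0.35, adjusted p = 0.00392), and with Hif3a, Pfkp and the glucose transporter Slc2a1 (-0.96 ± 0.23) it made 4 falls of 22 glycolysis and hypoxia genes, of which 1 was called without aPC-792. Ucp3, an uncoupling protein of muscle mitochondria, had 4.87 and 4.42 in aPC and 7.29 and 7.02 in untreated hearts (-2.51 ± 0.62, adjusted p = 0.0238). Of the 25 fatty acid genes it was the 1 that fell, while 3 rose by 0.45 to 0.53, calls that were lost without either aPC library. Mitochondrial ribosomal proteins rose in 9 of 34 members, led by Mrpl34 (1.08 ± 0.17) and Mrps16 (0.96 ± 0.14), with 0 falls, a median of 0.40 and a median length of 2897 bases. The list counted 2 rises without aPC-791 and 0 without aPC-792. Subunits of the respiratory chain rose in 1 of 43 members (median 0.39) and cytosolic ribosomal proteins in 1 of 65 (median 0.30), with all members of both lists above 0. Both lists hold short genes (median lengths 1928 and 1972 bases, against 4415 for all tested genes), and the median change of the shortest 20% of all genes was 0.28. The rises of the respiratory chain numbered 0 without either aPC library, untreated replicate 17, either rivaroxaban library or sham replicate 003, 11 without untreated replicate 19, 6 without either dabigatran library and 16 with Gm42418 out of the library totals. Nrf2 antioxidant genes fell in 5 of 17 members (Gclc, which makes glutathione, by 1.48 ± 0.32, and Txnrd1 by 1.15 ± 0.26) and 1 rose. These 5 falls were all lost without aPC-792.

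Genes that handle RNA and chromatin fell in part of their lists, of which the chromatin and splicing lists hold long genes. Of 21 histone and chromatin modifiers 12 fell and 0 rose, with a median change of -0.79 and a median length of 12811 bases over the exons of the gene, against 4415 for all tested genes. Kmt2d (chr15:98831669-98871204), a histone methyltransferase, had 5.88 and 5.82 log2 CPM in aPC and 7.48 and 8.09 in untreated hearts (-1.93 ± 0.20, adjusted p = 0.000835). Kdm6b, a histone demethylase induced in inflammation, had 4.996 and 5.159 in aPC and 6.26 and 6.67 in untreated hearts (-1.39 ± 0.17, adjusted p = 0.00163). The aPC libraries were the lowest of all 11 in both genes. Splicing factors and RNA-binding proteins fell in 16 of 35 members and rose in 0 (median change -0.55, median length 6946 bases): Tra2a changed by -0.97 ± 0.15, Srsf11 by -1.15 ± 0.21 and Rbm25 by -0.91 ± 0.17. Ribosome biogenesis genes fell in 6 of 20 members (median length 4758.5 bases), with Nat10 at -1.30 ± 0.34. Without aPC-792 the falls numbered 6 for chromatin, 1 for splicing and 0 for ribosome biogenesis. Without aPC-791 they were 5 for splicing and 2 for ribosome biogenesis, and without untreated replicate 19 they were 8 and 3. Ribosome biogenesis also counted 12 without untreated replicate 17 and 3 without any 1 of the rivaroxaban or sham libraries.

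Gene length ran with the direction of change over all genes. Among the 20% of genes with the shortest exon length (up to 2406 bases) the median change was 0.28, 12.5% were higher and 5.54% lower. Among the longest 20% (from 7655 bases) the median was -0.14, 3.21% were higher and 15.6% lower. The aPC libraries had the highest medians of the 11 libraries in the shortest 20%, with deviations of 0.19 and 0.10, against -0.09 in both untreated libraries. In the longest 20% the deviations were -0.096 and -0.070 in aPC and 0.075 and 0.051 in untreated libraries. There the aPC libraries did not stand apart, with -0.095 in Dabi-202 and -0.069 in sham replicate 006. After the trend of length was taken out of each library the shortest 20% had 6.31% higher and 7.64% lower and the longest 8.20% and 10.2%, and 996 genes were higher and 1202 lower in all. The count for ribosome biogenesis was then 3. Mhrt, an antisense transcript of the myosin locus that cannot be told apart from its partner without the strand setting, had 3.78 and 3.65 log2 CPM in aPC and 4.90 and 5.71 in untreated hearts (-1.60 ± 0.24, adjusted p = 0.00377). Malat1, a long nuclear RNA, had 11.62 and 11.42 in aPC and 12.59 and 12.85 in untreated hearts (adjusted p = 0.0636).

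**Figure D4:**
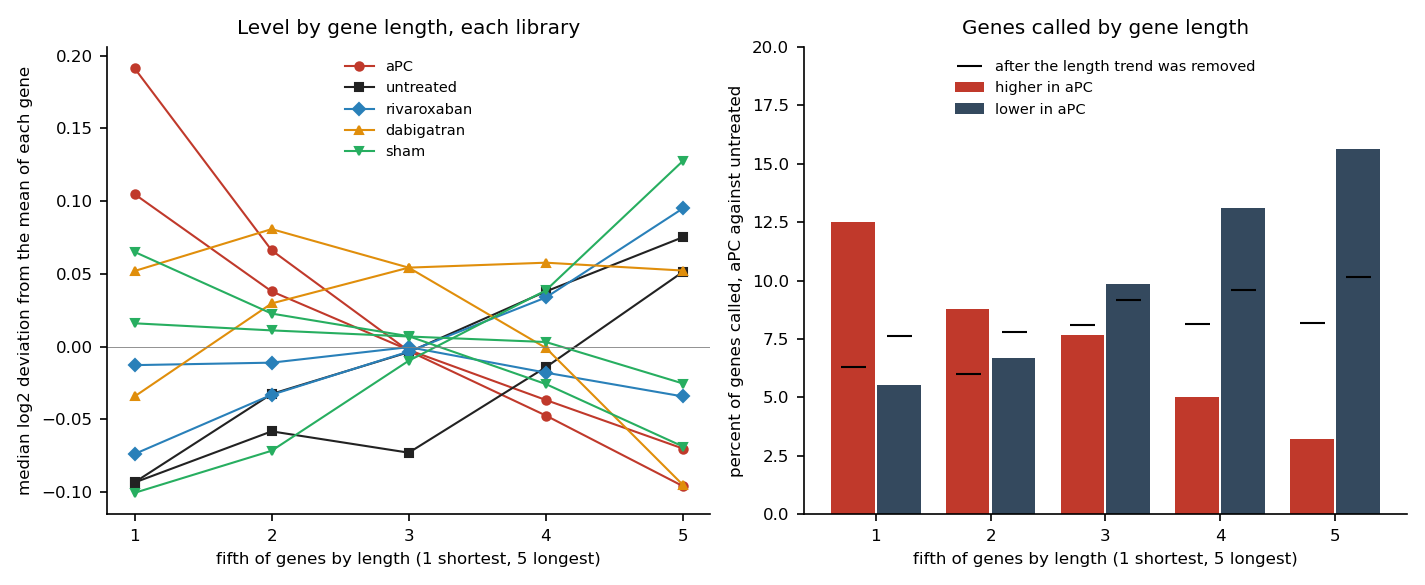
Left, median log2 deviation of genes from their mean over the libraries, in 5 equal classes of gene length, for each of the 11 libraries; the 2 aPC lines start highest, at 0.19 and 0.10. Right, percent of genes called higher and lower in aPC against untreated hearts by class of length; the share of rises is 12.5% in the shortest class and 3.21% in the longest, and black dashes give the shares after the length trend was removed.

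The 2 genes of the rRNA-like locus on chromosome 17 moved in opposite directions. Gm42418 (chr17:39846958-39848788) had 16.26 and 16.16 log2 CPM in aPC and 13.91 and 14.17 in untreated hearts (2.17 ± 0.34, adjusted p = 0.00463). Gm26917 (chr17:39843013-39846341), which ends just before it on the same strand and was chosen after its values were seen, had 4.76 and 4.66 in aPC and 7.21 and 7.53 in untreated hearts (-2.66 ± 0.17, adjusted p = 7.93e-05). Gnb1l, also chosen after its values were seen, had 10.15 and 10.18 in aPC and 7.61 and 7.97 in untreated hearts (2.37 ± 0.28, adjusted p = 0.00151), with between 7.25 and 8.29 in the other 7 libraries. The aPC libraries are apart from all others in the 3 genes, and reads at repeated sequence may be split between such loci by the counting.

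The same aPC libraries were also set against the other groups. These comparisons share the aPC libraries with the one above and are not independent of it. Against sham hearts 17 genes were higher (0.126%) and 142 lower (1.05%), and 2307 had an unadjusted p under 0.05. Against rivaroxaban 28 were higher (0.207%) and 180 lower (1.33%), and against dabigatran 1247 were higher (9.21%) and 1666 lower (12.3%). Several genes named above did not pass against sham: Grk5 was 0.18 ± 0.26 above sham (adjusted p = 0.758), Inhbb 0.36 ± 0.37 above it (adjusted p = 0.661) and Aif1 0.39 ± 0.38 above it (adjusted p = 0.641). Against sham, 0 members were called in the lists of immediate-early genes, glucocorticoid targets, NF-kB targets, interleukin 6 genes, chaperones of the endoplasmic reticulum and resident macrophages. The median changes of these lists against sham were -0.62, -0.11, -0.06, -0.0002, 0.46 and 0.23 in that order. A p that misses the threshold does not show that these levels are alike.

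A few genes, picked after their values were seen, passed the test against each of the other groups. Krt8 was higher than in sham by 4.87 ± 0.78 (adjusted p = 0.0221), than in rivaroxaban by 4.05 (adjusted p = 0.0486) and than in dabigatran by 2.99 (adjusted p = 0.0317). Dmkn, a secreted protein of epithelia chosen after its values were seen, had 2.89 and 1.63 log2 CPM in aPC and -2.00 and -1.38 in untreated hearts, and was above sham by 4.72 ± 0.53 (adjusted p = 0.00558). Npr3, the clearance receptor of natriuretic peptides, also chosen so, had 5.26 and 5.10 in aPC, 3.90 and 4.15 in untreated and 4.46, 4.28 and 4.51 in sham hearts (0.76 ± 0.15 above sham, adjusted p = 0.0369). Vsig2, a cell surface protein of the immunoglobulin family, had 2.39 and 1.83 in aPC, 5.06 and 5.62 in untreated and 4.61, 3.94 and 4.32 in sham hearts (-2.18 ± 0.27 against sham, adjusted p = 0.00793). Notch3 (-1.38 ± 0.17, adjusted p = 0.00793), Cspg4 (-0.96 ± 0.15, adjusted p = 0.0198) and Kmt2d (-1.50 ± 0.19, adjusted p = 0.00793) were below sham as well. For Dmkn, Npr3, Vsig2, Notch3, Cspg4 and Kmt2d the adjusted p lay between 0.00462 (Dmkn) and 0.0439 (Npr3) against rivaroxaban and between 0.00127 (Cspg4) and 0.0375 (Dmkn) against dabigatran. Tfpi, the inhibitor of tissue factor, passed against sham but not against untreated hearts: it had 6.98 and 6.64 in aPC, 6.28 and 6.56 in untreated and 5.71, 5.96 and 6.08 in sham hearts (0.89 ± 0.17 above sham, adjusted p = 0.0361; adjusted p = 0.153 against untreated).

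**Figure D5:**
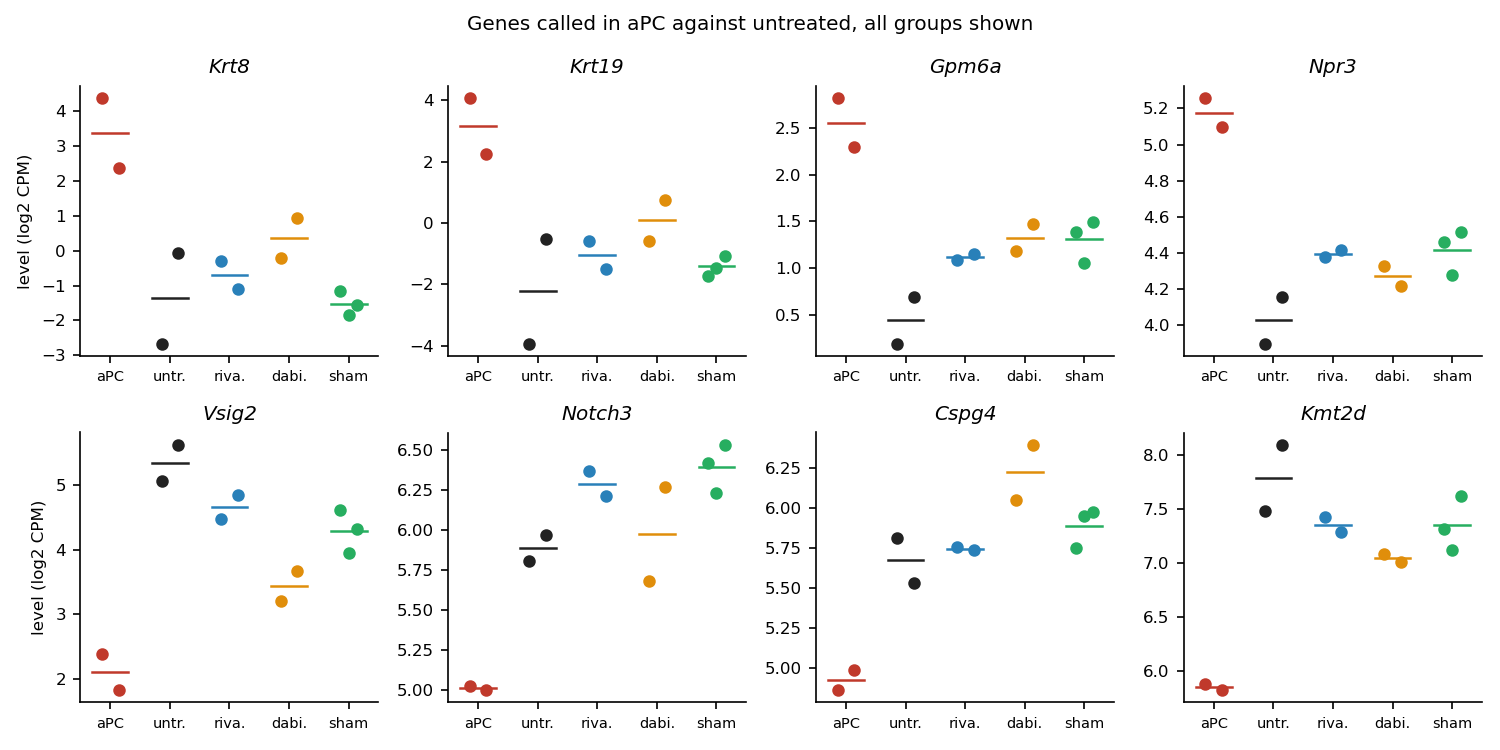
Level of 8 genes in every library (log2 CPM, vertical axis; points are libraries, lines group means) in aPC, untreated, rivaroxaban, dabigatran and sham hearts. The aPC points lie above all others for Krt8, Krt19, Gpm6a and Npr3 and below all others for Vsig2, Notch3, Cspg4 and Kmt2d. The genes were chosen for this pattern after their values were seen, and Krt8 and Krt19 passed the filter only through the aPC libraries and Dabi-204.

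Against dabigatran, 4 genes picked after their values were seen were lower in aPC, of which Plaur was also lower against untreated hearts and S100a8, Il1b and Procr were not called there. Plaur was lower than in dabigatran hearts by 3.06 (adjusted p = 0.00118), with 3.40 and 2.39 log2 CPM in aPC and 6.29 and 5.62 in dabigatran hearts. S100a8 had 4.59 and 3.14 in aPC and 7.78 and 6.61 in dabigatran hearts (-3.33, adjusted p = 0.00366). Il1b had 3.19 and 2.41 in aPC and 5.85 and 5.16 in dabigatran hearts (-2.71, adjusted p = 0.00352). Procr had 1.70 and 0.46 in aPC and 3.40 and 2.73 in dabigatran hearts (-1.98, adjusted p = 0.00741). The chaperones did not pass there, with Derl3 at 2.26 and 3.83 in aPC and 4.87 and 4.11 in dabigatran hearts (adjusted p = 0.279). Against rivaroxaban, Cbr2 was higher by 1.16 (adjusted p = 0.0243), C1qc by 0.85 (adjusted p = 0.0309) and C1qa by 0.91 (adjusted p = 0.0379).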

How the data were processed

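The deposited values are log2 CPM after TMM scaling, as the name of the authors’ table says. Per the submitters' processing notes, the authors used bcl2fastq, FastQC, Trim Galore, STAR and edgeR with build mm10; no counter, strand setting or filter is stated there. Values turned back to CPM came out as whole reads in 100% of cases (within 0.05 of a read), and a gene with 3 reads lies at or below -2.41 log2 CPM. Identifiers were matched to GENCODE M21 for length and position. The test was two-sided limma-trend (limma 3.58.1, R 4.3.3) on 5 group means over 11 libraries, tested on simulated data; 4 of the 15 labelled samples were not analysed here. Members and gene lists were chosen with earlier results of these data known. Named genes are the 10 largest rises and 10 largest falls among called, non-overlapping genes with a mean of at least 1 log2 CPM (no predicted genes), the 4 lowest-p members of every list of at least 5 tested genes, and 34 chosen genes, of which 32 were tested and 10 called; other genes were named after their values were seen. Intervals cover the spread between libraries only. Alternatives changed the filter, scale, normalization, spread, length and GC trends and the libraries used. Single-gene results for some list members are not reported here.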

Additional observations from a re-analysis of the deposited data

How the results depend on the processing

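The counts of 1007 genes higher and 1377 lower in aPC hearts depended most on the libraries. When 1 of the 11 libraries was left out, they ranged from 78 to 2790 higher and from 161 to 2445 lower, with the lowest counts without aPC-792 and the highest without untreated replicate 17. A fit of only the aPC and untreated libraries, with fewer degrees of freedom, called 1 and 2 genes. Library weights, which were 1.46 for each aPC library, 0.242 for each untreated library and between 0.662 and 3.15 for the others, left 59 and 175. Taking Gm42418 out of the library totals gave 1581 higher. The cause of the other shifts was not tested. Counts within 1.5 times of the main ones came from no filter, the stricter filter, log2 of CPM + 1, median centring, quantile normalization, limma without a trend, and removal of the length or GC trend. No called gene among those tracked changed sign under any alternative. Scaling alternatives turned the sign of the median for platelet markers, activated fibroblast genes, cardiomyocyte markers and cell cycle genes, all of which lay near 0. No paired analysis was possible because the groups share no replicate number. Depth limits genes under 3 reads, whose changes are understated.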

Other observations

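Several gene groups outside the account above held few calls. Over all genes tested, the shares were 7.44% higher and 10.2% lower. Interferon-stimulated genes rose in 2 of 17 members, and Ifi27l2a, which rose, had 4.99 and 5.47 log2 CPM in aPC and 3.21 and 2.99 in untreated hearts (2.13 ± 0.40, adjusted p = 0.00852). Nerve and Schwann cell markers rose in 2 of 8 members, and all 8 had changes above 0. The count was 1 without either aPC library, untreated replicate 19, either dabigatran library, sham replicate 003 or sham replicate 007, and with log2 of CPM + 1, quantile normalization, the stricter filter or no trend, and 4 without untreated replicate 17. Stmn2, a gene of growing axons, had 2.56 and 3.22 log2 CPM in aPC and 0.51 and 0.08 in untreated hearts (2.60 ± 0.37, adjusted p = 0.00313), with 3.27, 3.16 and 3.02 in sham hearts. Autophagy and lysosome genes rose in 4 of 17 members (Atg5, Bnip3, Ctsd and Lamp1) and fell in 1 (Ulk1), and of 31 proteasome genes 0 rose and 1 fell. Of the 21 cell cycle genes tested, 0 were called by limma in either direction and 0 had an unadjusted p under 0.05. Without either aPC library 0 of the 4 autophagy rises and 0 or 1 of the interferon rises were called.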
